A study of Mus musculus with 7 samples.

Results

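The 9 genes described here, Clec4a1, Clec4a2, Clec4a3, Clec4d, Clec4e, Clec4n, Clec5a, Clec10a and Clec12a, encode C-type lectin receptors of myeloid cells and were taken by their symbols from the 40743 genes of the deposited table. RNA sequencing had been performed on retinal microglia (rMG) sorted from Irf8 KO mice, in 3 libraries of unlasered retinae and 4 libraries of retinae 7 days after laser injury, the model of laser-induced choroidal neovascularisation (CNV). Both groups carried the genotype Irf8-/- Cx3cr1GFP/+, so that IRF8 was targeted and an allele of Cx3cr1 was replaced by GFP in the controls as well. The mice were adult, and each library pooled the cells of 3 to 4 mice, with 10000 sorted cells on average. The sort kept CD45 low, CD11b+, GFP+ cells and removed Ly6C+ and Ly6G+ cells. For lasered mice only the central 70% of the retina was used, so laser injury and retinal position cannot be told apart. Wild-type libraries were not analysed here, and no value below compares Irf8 KO with control.

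C-type lectin receptors are surface proteins that recognise sugars, lipids and ligands of damaged cells. A first class, with dectin-2 (Clec4n), Mincle (Clec4e), MCL (Clec4d) and MDL-1 (Clec5a), pairs with adaptor proteins that carry an activating tyrosine motif (ITAM) and signals through the kinase SYK to CARD9 and NF-kB. A further class, with DCIR (Clec4a2) and MICL (Clec12a), carries an inhibitory tyrosine motif (ITIM) in its own tail and recruits phosphatases, while MGL1 (Clec10a) binds galactose-type sugars on macrophages and dendritic cells.

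Levels are given as CPM, the share of a library that a gene holds, without division by gene length. Irf8, the targeted gene, was at 530, 489 and 507 CPM in unlasered libraries 1 to 3 and at 463, 465, 475 and 582 CPM in lasered libraries 1 to 4, all on reads listed jointly with Gm20388. A sum over the whole gene does not show whether the targeted part is present, so these values do not check the genotype.

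After laser injury, Clec12a was lower (386 ± 131 against 184 ± 36.1 CPM, mean ± SD, n = 3 and 4), and it was the single member past an adjusted p of 0.05 in the limma test over 17496 genes. Called genes made up 6.93% of all tested genes, and genes called lower made up 3.07%. The 5 Clec4 members other than Clec4e had positive differences with unadjusted p-values between 0.00944 and 0.0441 but did not pass the adjusted test. For Clec5a and Clec4e the 95% interval of the difference held 0. Clec10a was high in 2 of the 4 lasered libraries. All 9 members passed the filter of at least 1 CPM in at least 3 libraries.

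Of the 9 members, 8 lie on chromosome 6 and Clec10a lies on chromosome 11 (11:70156197-70170834, plus strand, ENSMUSG00000000318). In the GRCm38 annotation GENCODE M21, the 6 Clec4 members span 368 kb, in the order Clec4a1, Clec4a3, Clec4a2, Clec4n, Clec4d and Clec4e. The stretch holds 9 protein-coding genes, the others being Clec4b1, Clec4b2 and Clec4a4, near relatives of the members. Clec4a1 (122921848-122934619) and Clec4a3 (122952515-122969875) are direct neighbours on the plus strand with 17895 bases between them. Clec4e (123281789-123289870) is read from the minus strand, as is Clec5a (40574894-40585821), which lies outside the cluster. Clec12a (129342691-129365303) lies on the plus strand, also outside it. The library kit does not mark strand, and no member is overlapped by an annotated gene on the opposite strand. Reads of Clec4a2 include some listed jointly with the pseudogene Gm44132 inside it. Reads on stretches that near-identical relatives share, among Clec4a1 to Clec4a4 or between Clec10a and Mgl2, may have been split or dropped, so these values are uncertain to that extent.

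The RefSeq promoter table (GRCm38.p6, 250 bases before to 50 bases after each start site) held 8 windows for 7 members, and none for Clec4n and Clec10a. They are shown because the neighbours Clec4a1 and Clec4a3 had similar patterns across libraries (Pearson's r = 0.988 over 7 libraries, see the levels that follow) and because the letters searched belong to factors of myeloid cells. The 250 bases before the start site of Clec4a1 follow (chr6:122921598-122921847, plus strand, upstream of the annotated gene). Capitals mark TTCCTC, the reverse complement of the PU.1 core GAGGAA, and TTCCTTTCC, a match to the ETS-IRF composite GGAANNGAA on the reverse strand.
Clec4a1: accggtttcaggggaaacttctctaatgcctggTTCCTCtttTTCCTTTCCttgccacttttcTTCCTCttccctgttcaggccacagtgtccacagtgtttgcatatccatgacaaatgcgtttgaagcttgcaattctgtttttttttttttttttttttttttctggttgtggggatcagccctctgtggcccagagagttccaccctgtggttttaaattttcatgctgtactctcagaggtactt
The windows of Clec4a1, Clec4a3 and Clec5a share a run of 11 bases, in capitals in the following stretches of 30 bases (chr6:122921622-122921651 plus, chr6:122952585-122952614 plus and chr6:40585840-40585869 minus).
Clec4a1: aatgcctggTTCCTCTTTTTcctttccttg
Clec4a3: atgccctggTTCCTCTTTTTcattccttcc
Clec5a: gaagttcccTTCCTCTTTTTgccccgcctg
Clec4a1 and Clec4a3 share 17 bases around this run, at 222 and 55 bases before their start sites. Runs of 10 of these 17 bases are also in the windows of Clec4e and Clec12a. Over the 7 libraries, r with Clec4a1 and Clec4a3 was 0.139 and 0.121 for Clec5a. It was 0.312 and 0.239 for Clec4e, and -0.726 and -0.785 for Clec12a. A link between the shared bases and the levels was not tested. The run of 11 bases was noticed after the sequences were read, and it is found in 50 of 32851 promoters of the table (0.152%). The ETS-IRF composite is in the windows of Clec4a1 and Clec5a and in 8.24% of all promoters. In Clec5a it overlaps a PU.1 core. The interferon response letters GAAANNGAA are in the window of Clec4d, after its start site and overlapping a PU.1 core there, and in 8.56% of all promoters. The PU.1 core, searched after the sequences were read, is in the windows of 6 of the 7 members, all but Clec4a2, and in 28.3% of all promoters.

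The C/EBP letters TTGCNNAA are in the windows of Clec4e and Clec12a and in 10.8% of all promoters. They are in capitals in these stretches of 30 bases (chr6:123289919-123289948 minus and chr6:129350093-129350122 plus), and the match in Clec12a reads the same on both strands.
Clec4e: actccttgtccTTGTGCAAgagaggaaatt
Clec12a: gtaggagcaaaTTGCGCAActcgtatgaag
All motifs were searched on both strands, and a match describes the letters and not a bound site. The stretch of Clec12a lies inside the first exon of an annotated transcript that starts further upstream, and the stretch of Clec4a3 lies in the first intron of a transcript that starts further upstream.

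Dectin-2, which binds mannose-rich sugars of fungi, was the member with the highest level per kilobase of exons in both groups. Clec4n was at 502, 373 and 352 CPM in unlasered libraries 1, 2 and 3 and at 497, 618, 626 and 532 CPM in lasered libraries 1 to 4. Unlasered library 1 lay just above lasered library 1, and the other lasered libraries lay above all unlasered ones. The means were 409 ± 81.4 and 568 ± 63.8 CPM (n = 3 and 4), a log2 fold change of 0.49 on the log2(CPM + 1) scale (SE 0.15, 95% interval 0.14 to 0.83, limma adjusted p = 0.0968).

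Clec4d, which encodes MCL, a partner of Mincle at the cell surface, was low throughout. It was at 4.16, 6.45 and 2.64 CPM in unlasered libraries and at 6.05, 9.47, 6.08 and 7.03 CPM in lasered libraries. The ranges met, with unlasered library 2 above lasered libraries 1 and 3. Its difference in log2 was 0.63 (SE 0.27, 95% interval 0.02 to 1.24, limma adjusted p = 0.206), and without unlasered library 3 it was 0.38.

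Clec4e, which encodes Mincle, the receptor for mycobacterial glycolipids and for SAP130 released by dying cells, varied widely between libraries of a group. It was at 23.4, 4.47 and 25.9 CPM in unlasered libraries and at 9.97, 17.6, 8.60 and 3.69 CPM in lasered libraries. Unlasered library 2 was almost as low as lasered library 4, and the ranges overlapped widely. Clec4e had a log2 fold change of -0.64 (SE 0.60, 95% interval -2.00 to 0.71, limma adjusted p = 0.581). It was not called in any of the 14 alternatives, and with single libraries left out it lay between -1.39 (without unlasered library 2) and -0.24 (without unlasered library 3), with -0.31 without unlasered library 1 and -0.29 without lasered library 4. The neutrophil markers, a cell type known to carry Mincle and MCL, summed to 0.642 to 11.4 CPM in unlasered and 2.59 to 18.9 CPM in lasered libraries, with Mmp8 and Cxcr2 called higher (limma adjusted p = 0.0337 and 0.0305) and Ly6g, Retnlg and Ngp at no more than 3 reads in any library. S100a8, S100a9 and Camp, further markers of the list, had lower means after laser (2.72 and 2.29, 1.22 and 0.397, and 0.364 and 0.204 CPM). S100a8 was not called, and the other two were too low to be tested. Their part in the Clec4d and Clec4e values was not tested. Sap130, the gene of the Mincle ligand, had a log2 fold change of 0.24 (limma adjusted p = 0.568).

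Clec5a, which encodes MDL-1 and couples to the adaptor DAP12, was nearly the same in both groups. It was at 368, 284 and 278 CPM in unlasered libraries and at 278, 286, 367 and 334 CPM in lasered libraries, and the ranges coincided. The log2 fold change was 0.03 with a 95% interval of -0.31 to 0.37 (limma adjusted p = 0.928), so a change beyond these bounds in either direction was outside the interval.

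**Figure D1:**
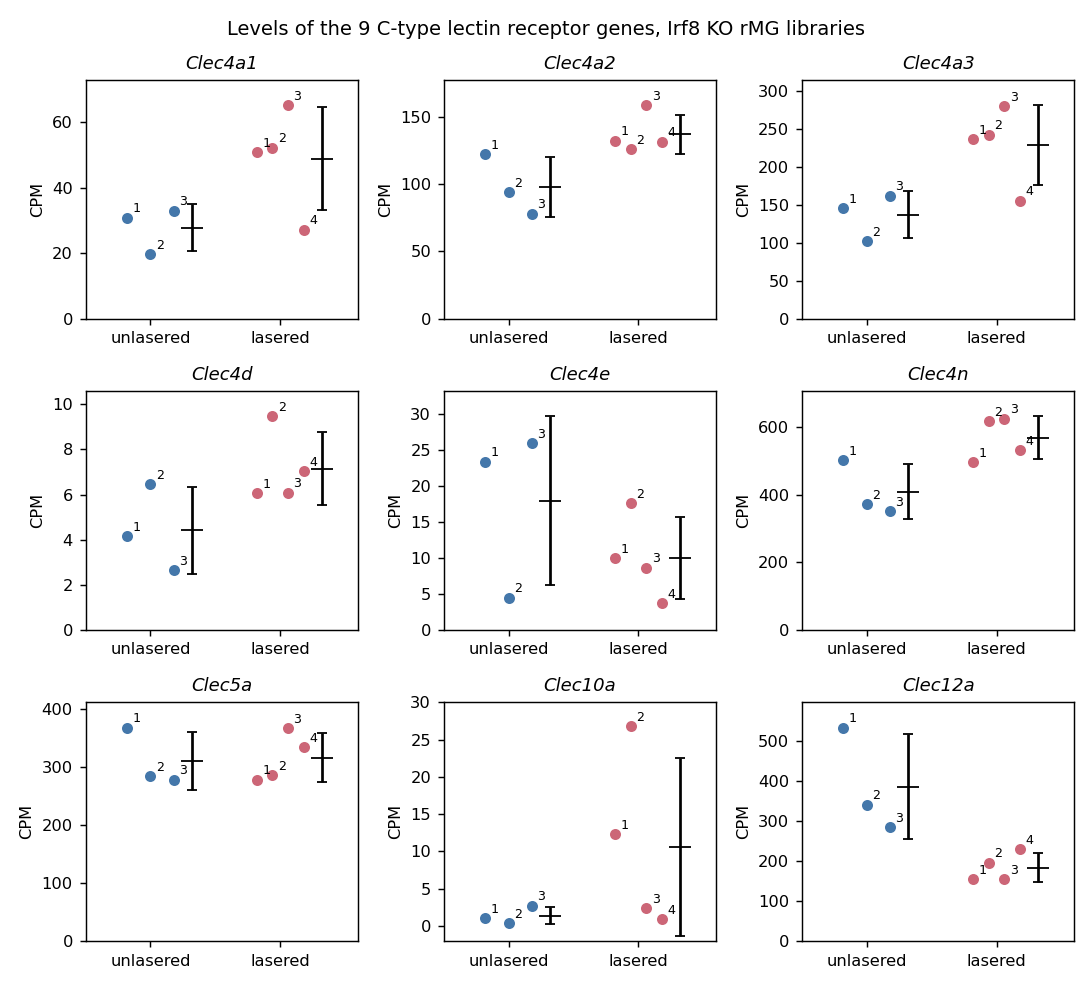
CPM of each member (vertical axis, linear, a separate scale per panel) in 3 unlasered (blue) and 4 lasered (red) libraries, with library numbers beside the points and mean ± SD in black. Clec12a is lower in each lasered library (154 to 229 CPM) than in any unlasered one (284 to 534 CPM), Clec4a2 is higher in each, and the other panels overlap.

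Among the members of the DCIR group, Clec4a2, the one known for its inhibitory motif, was higher in each lasered library than in any unlasered one. It was at 122, 94.1 and 78.1 CPM in unlasered libraries and at 132, 126, 159 and 132 CPM in lasered libraries. The gap between unlasered library 1 and lasered library 2 was small compared with the spread of each group. The means were 98.1 ± 22.4 and 137 ± 14.7 CPM (n = 3 and 4), with a log2 fold change of 0.50 (SE 0.17, 95% interval 0.12 to 0.87, limma adjusted p = 0.114).

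Clec4a3, a relative of DCIR, was the second highest member per kilobase. It was at 145, 102 and 162 CPM in unlasered libraries and at 237, 242, 280 and 155 CPM in lasered libraries. Lasered library 4 lay within the unlasered range and the other lasered libraries lay above it. Clec4a3 had a log2 fold change of 0.73 (SE 0.22, 95% interval 0.23 to 1.24, limma adjusted p = 0.0885). Without lasered library 4 it was 0.91, and the adjusted p was 0.0395. Without unlasered library 2 it was 0.54, with an adjusted p of 0.239. On the recovered reads DESeq2 called it (adjusted p = 0.0122) and edgeR did not (adjusted p = 0.0695).

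Clec4a1, a further relative, had a similar pattern. It was at 30.8, 19.7 and 33.0 CPM in unlasered libraries and at 50.9, 52.3, 65.2 and 27.3 CPM in lasered libraries. Here too lasered library 4 lay among the unlasered values. The log2 fold change was 0.76 (SE 0.29, 95% interval 0.09 to 1.43, limma adjusted p = 0.162), and without lasered library 4 it was 1.01 with an adjusted p of 0.046. Without unlasered library 2 it was 0.54, with an adjusted p of 0.405. DESeq2 called it (adjusted p = 0.042) and edgeR did not (adjusted p = 0.124).

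Clec12a encodes MICL, an inhibitory receptor for uric acid crystals that dampens the response to dead cells. It was at 534, 341 and 284 CPM in unlasered libraries and at 154, 196, 155 and 229 CPM in lasered libraries. All lasered libraries lay below the unlasered range. The log2 fold change was -1.04 (SE 0.23, 95% interval -1.55 to -0.52, limma adjusted p = 0.0321), and 717 genes had a smaller p. By mean CPM Clec12a was placed 295 among all genes of unlasered libraries and 852 in lasered libraries.
Its direction was negative under all 14 alternatives tried, with log2 fold changes from -1.23 to -0.78. The call was lost with an adjusted p of 0.0659 without unlasered library 1, 0.0595 without unlasered library 2, 0.0845, 0.0759 and 0.0842 without lasered libraries 1, 2 and 3, 0.0796 without the filter on low values and 0.103 with the replicate number as a block. With edgeR and DESeq2 on the recovered reads the adjusted p was 0.0349 and 0.00068.

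The summed markers of border macrophages and of rod photoreceptors were also lower after laser injury. The 7 listed markers of border macrophages, the macrophages of vessels and meninges, summed to 2175 to 2715 CPM in unlasered and 1308 to 1578 CPM in lasered libraries. Of these, Pf4 (-0.89, limma adjusted p = 0.0285) and Ms4a7 (-0.81, adjusted p = 0.047) were called lower, and 4 of the 6 tested were not called. Ms4a7, Mrc1 and Pf4 make up most of these sums. Cbr2 differed in the other direction (1.06, adjusted p = 0.0799, called higher by DESeq2), Folr2 had a log2 fold change of 0.34 and Cd163 of -0.016. Lyve1, a defining marker, had means of 0.680 and 0.00568 CPM. The 10 listed genes of rod photoreceptors, the light-sensing cells, summed to 1661 to 16312 CPM in unlasered and 261 to 888 CPM in lasered libraries, with 9 of 10 called lower. Unlasered library 1 and lasered library 4 had the highest Clec12a of their groups. They also had the highest border macrophage sums (2715 and 1578 CPM) and the lowest rod sums (1661 and 261 CPM) of their groups. The part of border macrophages and rods in the Clec12a result was not tested. The 10 microglia markers summed to 25283 to 30135 and 22722 to 30780 CPM, and Sall1, a defining marker of microglia, was near 0 with means of 0.422 and 0.509 CPM. The paper reported Sall1 as strongly lower in Irf8 KO rMG than in controls. Its level here therefore cannot tell whether the sorted cells were microglia. In bulk libraries, fewer cells of a type and less RNA per cell cannot be told apart.

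Clec10a encodes MGL1, a receptor for galactose-type sugars. It was at 1.03, 0.380 and 2.69 CPM in unlasered libraries and at 12.3, 26.8, 2.33 and 0.916 CPM in lasered libraries. Lasered libraries 1 and 2 were high, and lasered libraries 3 and 4 lay within the unlasered range. The log2 fold change was 1.68 (SE 0.83, 95% interval -0.20 to 3.56, limma adjusted p = 0.272), and with single libraries left out it lay between 1.01 (without lasered library 2) and 2.30 (without lasered library 4). On the recovered reads it was 2.93 with edgeR and 2.95 with DESeq2, and none of the 14 alternatives called it. The ratio of the group means was 7.75, as the log2(CPM + 1) scale lessens the difference of low genes.
Mgl2, its close paralogue, had a similar pattern, with 1.66, 0.146 and 1.30 CPM in unlasered and 24.1, 54.3, 3.48 and 1.05 CPM in lasered libraries. Cd74, the invariant chain of MHC class II, was at 124, 43.8 and 245 CPM in unlasered and 1808, 2989, 252 and 72.8 CPM in lasered libraries, and across the 7 libraries its r with Clec10a was 0.987. H2-Ab1, an MHC class II chain, had an r of 0.983. The 10 dendritic cell markers summed to 189, 72.0 and 366 CPM in unlasered and 2812, 4657, 410 and 136 CPM in lasered libraries, and Cd74 and H2-Ab1 make up most of these sums. Ccl22 was the 1 marker called higher by limma (limma adjusted p = 0.0132). edgeR called Cd209a and Ccl22 higher, and DESeq2 called Cd209a, Ccr7, Ccl22 and H2-Ab1 higher. Clec9a, a defining marker of cross-presenting dendritic cells, was at 0.105 and 0.0669 CPM on average. The monocyte markers summed to 47.5 to 112 CPM in unlasered and 29.4 to 261 CPM in lasered libraries, and Ly6c2, whose product the sort removed, was at 0.443 and 0.481 CPM on average. Of the monocyte markers, Ccr2 was at 81.5 and 128 CPM in lasered libraries 1 and 2 and at most at 19.7 CPM elsewhere. DESeq2 called Ccr2 higher, and limma and edgeR did not. Ms4a4c was at 26.6 and 26.5 CPM in lasered libraries 1 and 2 and at most at 5.97 CPM elsewhere. The dendritic cell markers Flt3 (15.5 and 27.5 CPM) and Ccr7 (74.8 and 68.5 CPM) were also highest in these libraries. Some other listed markers lacked the pattern of Clec10a. The dendritic cell markers Zbtb46 and Xcr1 were highest in unlasered library 3 (36.6 CPM) and unlasered library 2 (2.48 CPM). The monocyte marker Plac8 was highest in unlasered library 1 (47.0 CPM). The part of dendritic cells and monocytes in the Clec10a values was not tested.

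**Figure D2:**
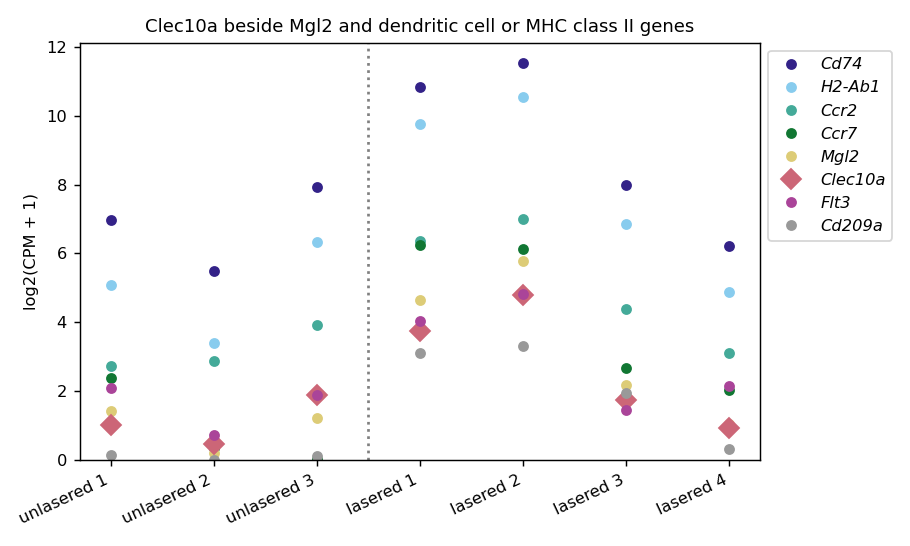
Levels of Clec10a (diamonds), Mgl2, Cd209a and dendritic cell, monocyte or MHC class II genes (circles) in each library, as log2(CPM + 1). Lasered libraries 1 and 2 stand above the rest for all 8 genes shown, and Clec10a is at 12.3 and 26.8 CPM there and at most at 2.69 CPM in the other 5. Some listed markers that are not shown, such as Zbtb46, Xcr1 and Plac8, lack this pattern.

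Across the members, 6 of 9 had an unadjusted p under 0.05 (Clec4a1, Clec4a2, Clec4a3, Clec4d, Clec4n and Clec12a), against 22.7% of all tested genes. The groups did not overlap for 2 of 9 members, Clec12a and Clec4a2, against 21% of all tested genes, a share near the background. The median log2 fold change of the members was 0.50, against -0.01 over all tested genes. The summed CPM of the 9 members was 1219 to 1731 in unlasered and 1377 to 1669 in lasered libraries, and within this sum Clec12a held 23.3% to 30.8% in unlasered and 9.29% to 16.1% in lasered libraries. Lasered libraries were the deeper ones, with 37133297 to 45919042 reads against 20427558 to 36022954. When all libraries were thinned to the smallest one, Clec12a was still the 1 member called.

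**Figure D3:**
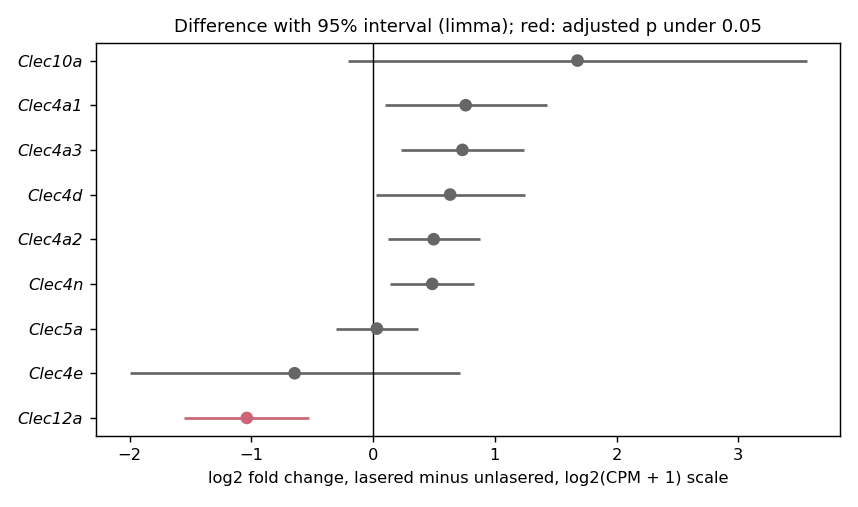
Log2 fold change of each member, lasered minus unlasered on the log2(CPM + 1) scale (horizontal axis), with its 95% interval from limma (n = 3 and 4). Clec12a (-1.04, red) is the member with an adjusted p under 0.05; the intervals of Clec10a, Clec5a and Clec4e include 0.

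Levels were compared between members as CPM per kilobase of exons. In unlasered libraries Clec4n came first at 288 ± 57.3, followed by Clec4a3 (103), Clec5a (80.8) and Clec12a (69.9), whose neighbouring ranges overlapped. Clec4a2 (33.5) and Clec4a1 (17.9) stood apart from each other and from the rest. Clec4e (3.61) and Clec4d (2.76) overlapped, and Clec10a (0.471) was last. In lasered libraries Clec4n was first again at 400.3 ± 44.9, and Clec4a3 (172), Clec5a (82.4) and Clec4a2 (46.9) followed in that order without overlap. Clec12a (33.2) had moved from the fourth place to the fifth and overlapped Clec4a1 (31.4). Clec4d (4.47), Clec10a (3.65) and Clec4e (2.01) were lowest, with overlapping neighbours.

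The genes closest to each member in pattern were found by Pearson's r of log2(CPM + 1) over the 7 libraries, as a description. The points share each library's depth and composition, and no test was made of r. Clec4a1 was closest to Angpt2, a ligand of vessel growth (0.995, at most 2.74 CPM), and to the transporter Abcb1b (0.991). Clec4a3 was closest to the receptor Gpr18 (0.993) and again to Angpt2 (0.990). Clec4n was closest to Tmem176a (0.985) and the actin regulator Arpc5 (0.980), and Clec4a2 to Entpd7 (0.991) and Gm12856 (0.983). Clec12a was closest to AC158600.4 (0.993) and Gm11896 (0.992), both low. Clec10a was closest to Gm15859 (0.992), then to Cd74. Clec4d was closest to Ybx1-ps2 (0.985) and Gm6376 (0.984), Clec4e to Chst3 (0.978) and Rad52 (0.977), and Clec5a to Dnajc14 (0.973) and Agbl3 (0.968). Among the members themselves, r was 0.924 for Clec4a2 and Clec4n.

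The signalling genes that act below the receptors did not pass the limma test in either direction. Of 15 tested genes of ITAM-coupled signalling, 0 were called by limma, 0 by edgeR and 1 by DESeq2, while 2 had an unadjusted p under 0.05 and the median log2 fold change was 0.07. Fcer1g, the adaptor of dectin-2, Mincle and MCL, was at 1707 ± 251 and 1642 ± 51.8 CPM (log2 fold change -0.05, limma adjusted p = 0.86). Tyrobp, which encodes DAP12, was at 1288 ± 195 and 1482 ± 105 CPM (0.21, adjusted p = 0.366). Both adaptors were several times higher per kilobase than any member. Syk was at 161 ± 60.8 and 162 ± 18.4 CPM (0.07, adjusted p = 0.893). Card9, which links SYK to NF-kB, was low at 6.47 ± 0.337 and 7.86 ± 1.21 CPM (0.24, adjusted p = 0.497). The phospholipase Plcg2 had a log2 fold change of 0.56 (unadjusted p = 0.04, limma adjusted p = 0.196). Of the 3 phosphatases that bind the inhibitory motif, 0 were called by limma, edgeR or DESeq2 and 0 had an unadjusted p under 0.05. Ptpn6, which encodes SHP-1, was at 497 ± 32.5 and 531 ± 85.8 CPM.

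Of 26 other C-type lectin receptors listed, 15 were tested with limma, 2 were called higher, 0 were called lower and 9 had an unadjusted p under 0.05, with a median of 0.28. edgeR called 3 higher, adding Cd209a, and DESeq2 called 4 higher, adding Cd209a and Mgl2, and both called 0 lower. Cd72, an ITIM receptor known from B cells, was at 163, 158 and 145 CPM in unlasered libraries and at 402, 409, 497 and 406 CPM in lasered libraries. The groups were far apart, with a log2 fold change of 1.45 (SE 0.12, limma adjusted p = 0.0015). Colec12, a scavenger receptor with a lectin domain, rose from 44.5 ± 6.17 to 86.3 ± 18.2 CPM (0.93, adjusted p = 0.0234), partly on reads listed jointly with another gene. Clec7a, which encodes dectin-1, was the highest of these per kilobase (243 and 272) at 642 and 717 CPM (0.15, adjusted p = 0.553). Mrc1, the mannose receptor, was at 621 and 413 CPM (-0.59, adjusted p = 0.131). The neighbours of the members in the cluster, Clec4a4 (11.1 and 15.9 CPM, adjusted p = 0.150) and Clec4b1 (6.88 and 9.90 CPM, adjusted p = 0.193), had positive differences that were not called. Clec4b2 was too low to be tested. Cd209f and Cd209g were at 0 in all 7 libraries.

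Of 15 listed cytokines, chemokines and feedback genes of NF-kB, 10 were tested, and 2 were called higher and 0 lower. The chemokine Ccl4 was at 10.3 ± 1.53 and 30.4 ± 6.27 CPM (1.47, limma adjusted p = 0.0075), and Ccl2, which attracts monocytes, at 4.81 ± 1.63 and 11.1 ± 2.68 CPM (1.08, adjusted p = 0.0425). Il1b was at 20.9 ± 1.68 and 24.7 ± 10.2 CPM, Tnf at 9.26 ± 3.80 and 7.86 ± 2.34 CPM, and Tnfaip3, a brake on NF-kB, at 62.3 ± 34.9 and 31.1 ± 6.14 CPM, none of them called by limma. With edgeR, Ccl4 alone was called, and with DESeq2 Nfkbiz was also called higher and Tnfaip3 lower. Csf2 was at 0 in all libraries.

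**Figure D4:**
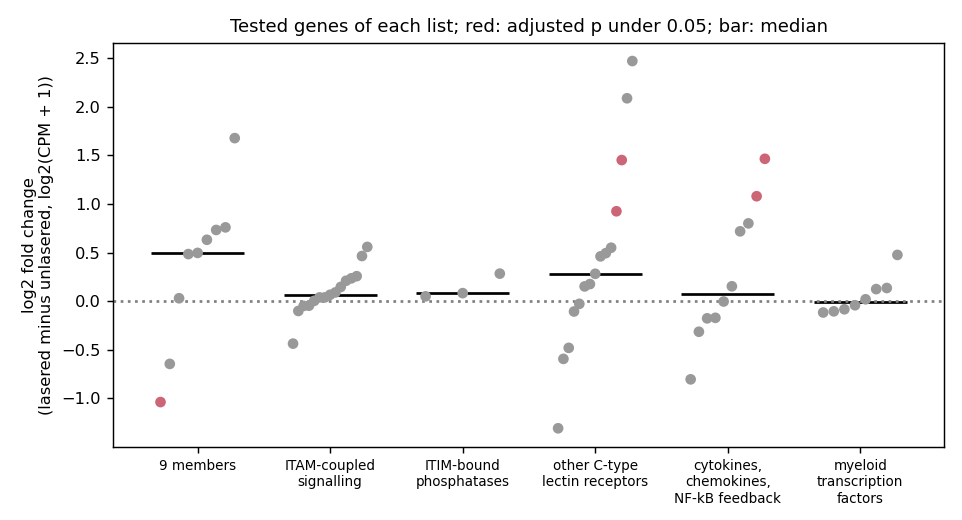
Log2 fold change (lasered minus unlasered, log2(CPM + 1), vertical axis) of each tested gene of the 9 members and of 5 lists, with the median as a bar and genes of adjusted p under 0.05 in red. Clec12a is the red point among the members, 2 points are red among other C-type lectin receptors and 2 among cytokines and chemokines, and none in the remaining 3 lists.

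Of 8 tested transcription factors of myeloid cells, 0 were called by limma, edgeR or DESeq2 and 0 had an unadjusted p under 0.05. Spi1, which encodes PU.1, was at 364 ± 17.1 and 337 ± 33.2 CPM, and Cebpb at 163 ± 10.2 and 163 ± 59.0 CPM.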

How the data were processed

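Retinal microglia were sorted from pooled mice, and RNA-seq libraries were made from 3 unlasered and 4 lasered pools with a kit that does not mark strand. The authors trimmed reads with cutadapt, removed duplicates with FastUniq, mapped with Bowtie2 to GRCm38 and counted reads per gene with HTSeq. Versions are not given in the sources used here. The deposited columns are headed TPM but hold CPM: each value is a whole multiple of what 1 read is worth (100% of values, tolerance 0.01 reads). The smallest level that 3 reads allow was 0.0653 to 0.147 CPM, for counting error only.

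log2(CPM + 1) was fitted with limma 3.58.1 (R 4.3.3; trend and robust) over 17496 genes that reached 1 CPM in 3 or more libraries, two-sided, with Benjamini-Hochberg adjustment over all of them. edgeR 4.0.16 and DESeq2 1.42.0 were run on recovered reads as alternatives. Tables were handled with Python 3.11.15 and pandas 2.3.3. Each library is a separate pool, and p-values measure the spread between pools. Named genes are all members, called genes of the pathway lists (up to 6), 4 adaptors and kinases, the 3 other receptors highest per kilobase and the 2 genes closest to each member. Further genes, such as Plcg2, Tnf, Cd209f, Spi1 and the markers, were named after their values were seen. Members and lists were chosen with earlier results of these data known. Protein sequences were not used here, and a single gene of the signalling list is not reported here.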

Additional observations from a re-analysis of the deposited data

How the results depend on the processing

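Over all genes, the 1213 calls (676 higher, 537 lower) became 385 without the filter on low values, 2318 with DESeq2, 54 under the thresholds of the study's methods (absolute log2 fold change over 1.5, unadjusted p under 0.05 and a mean of at least 100), and between 264 (without lasered library 2) and 1248 (without unlasered library 3) when each library was left out. edgeR gave 1266, median-of-ratios scaling 1256, thinning 1091 and a pseudocount of 0.1 gave 1193. The study's thresholds were applied here to the limma fit and to mean CPM, whereas the study applied them to DESeq2 results and values named TPM. Of the 9 members, 1 was called, against 3 with DESeq2, 0 without the filter, 0 under the study's thresholds and 0 to 3 when each library was left out. Without unlasered library 1 the 1 called member was Clec4n (0.64, adjusted p = 0.0471) and not Clec12a. Clec5a changed sign without unlasered library 2 (-0.026), without unlasered library 3 (-0.042) and without lasered library 3 (-0.044), with a highest value of 0.16 when a library was left out, and was called in no alternative. Of 126 alternatives of single members, 111 kept direction and side of the threshold. The cause was not tested. Median-of-ratios scaling moved the median of all genes from -0.014 to -0.0081.

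The shared numbers of libraries 1 to 3 did not pair them: deviations of same-numbered libraries correlated at -0.183, -0.126 and -0.0234 across genes. With the replicate number as a block, 3 genes and 0 members were called, and Clec12a had a log2 fold change of -1.15 (limma adjusted p = 0.103). Lasered library 4 shares its number with no other library, so it does not enter the difference in this fit. The log2 fold changes of the members equal those without lasered library 4. Clec10a, Clec4d and Clec4e had the lowest levels of the members. With all libraries thinned to the smallest one, their log2 fold changes were 1.70, 0.72 and -0.60, against 1.68, 0.63 and -0.64 without thinning.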
